A study of Homo sapiens with 16 samples.

Results

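The 10 genes described here are EPHB2 and 9 other Eph receptor and ephrin genes expressed in HCT116 cells, out of 31496 genes with a matched transcript. They were chosen by name from the Eph and ephrin family, with earlier results of these data known. EPHB2 was selected on the result itself, for a large fall, smaller at later times, in the libraries labelled NORAD knockdown. The values of EPHB2 between knockdown and wild type are therefore given as a description, with no test. The other 9 genes are the receptors EPHB3, EPHB4, EPHA1, EPHA2 and EPHA4 and the ligands EFNB1, EFNB2, EFNA1 and EFNA4. All 10 passed the filter on low counts, as did 8 of the 12 remaining genes of a list of 22 Eph and ephrin genes.

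Eph receptors form the biggest family of receptor tyrosine kinases, and their ligands, the ephrins, are themselves held on the surface of neighbouring cells. Ephrin-A proteins are anchored in the membrane by a lipid and ephrin-B proteins cross it, so that contact between cells signals forward through the receptor and in reverse through the ligand. In the intestine, EPHB2 and EPHB3 are targets of beta-catenin and TCF that are high at the base of the crypt, while ephrin-B ligands are high towards its top, and the repulsion between the 2 keeps cells in their place.

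HCT116 is a human colon cancer cell line. Polyadenylated RNA was sequenced from cells labelled wild type and from cells labelled knockdown, in which CRISPR interference, a dead Cas9 with a repressor sent to a promoter, was aimed at the long noncoding RNA NORAD and induced with 0.5 µg/ml doxycycline. The 16 libraries came in pairs of groups: 2 wild-type and 2 knockdown libraries harvested at 24 h, then 3 of each at 48 h and another 3 of each at 96 h. The protocol given for all 16 libraries, wild type included, lists 0.5 µg/ml doxycycline, but the labels do not say separately whether wild-type cells received it. Nor do they say whether wild-type cells carried the CRISPR interference system, whether the knockdown line was 1 clone, or whether replicates were separate cultures. A p-value here therefore reflects how far the libraries of a group lay apart, and that spread may be technical.

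Library totals lay between 28391784 and 51853876 estimated counts. NORAD itself checked the labels. Its knockdown mean was 110% of wild type at 24 h (log2 fold change 0.14, SE 0.117, edgeR Benjamini-Hochberg adjusted p = 0.523), 13.6% at 48 h and 39.9% at 96 h, so the 24 h libraries are called libraries labelled knockdown. Of 13 colon epithelial markers, 4 (VIL1, CDX1, CEACAM6 and LGALS4) never rose above a level of 1 per length, and CDH17 and CEACAM5 reached at most 1.55 and 1.12. The list summed to 3240 to 6340 in wild type and 2650 to 6500 in knockdown libraries. Most of that sum came from the keratin genes KRT8 (924 to 1690), KRT18 (703 to 1070) and KRT19 (880 to 3610). Of 15 markers of other cells, 10 never rose above 1. The 15 summed to 43.0 and 32.4 in wild type and 53.5 and 58.0 in the libraries labelled knockdown at 24 h, and the groups lay apart. The 48 h sums, 19.8 to 24.1 in wild type against 31.8 to 38.5 in the knockdown, lay apart too, and the 96 h sums, 24.8 to 30.2 against 29.7 to 32.1, overlapped. COL1A1, a collagen gene, was the most abundant of them (7.44 to 43.4) and its 48 h log2 fold change passed (1.07, edgeR adjusted p = 1.57e-07), as did that of the muscle gene DES (0.60, edgeR adjusted p = 0.0197). NEUROD1 (0.174 to 11.8), DES (1.08 to 8.17), GFAP (0.279 to 2.56) and CDH5 (0.0161 to 1.65) also rose above 1 in at least 1 library. PTPRC, CD3E, CD14 and COL3A1 reached at most 0.357. Over the 11 tested, the median log2 fold change was 0.38, 0.61 and -0.14 at 24, 48 and 96 h, with 0, 2 and 0 called higher. The part of other cells in the results was not tested. One library stood apart: replicate 3 of the knockdown at 48 h was the highest of its 3 for 10 of 10 members, against 41.7% of all tested genes. Results without it are given for the member counts and for some genes whose call changed, not for every 48 h value. A gene is called where its adjusted p is under 0.05. Values are CPM (counts relative to library size, with sizes scaled by edgeR's trimmed mean of M-values, TMM), unless a level per length is named. In bulk RNA, fewer cells with a transcript and less of it per cell cannot be told apart.

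EPHB2, the receptor on which the set was chosen, lies on chromosome 1 at 22710839 to 22921500 on the plus strand of GRCh38 (ENSG00000133216). The bases just before the annotated start of EPHB2 are shown because 4 of its 5 counted transcripts begin there or shortly after it: EPHB2-207 at 22710839, EPHB2-202 and EPHB2-204 at 22710965 and EPHB2-203 at 22710970. Those of EFNB2 are shown because it is the member called lower in the knockdown at every time. They end at the annotated gene start, and the counted transcript EFNB2-201 begins 0.5 kb further downstream, at 106535114. Both come from RefSeq (GRCh38.p14), read 5′ to 3′ on the strand of the gene, with GC boxes (GGGCGG on either strand) in capitals.

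EPHB2, plus strand, chr1:22710589-22710838: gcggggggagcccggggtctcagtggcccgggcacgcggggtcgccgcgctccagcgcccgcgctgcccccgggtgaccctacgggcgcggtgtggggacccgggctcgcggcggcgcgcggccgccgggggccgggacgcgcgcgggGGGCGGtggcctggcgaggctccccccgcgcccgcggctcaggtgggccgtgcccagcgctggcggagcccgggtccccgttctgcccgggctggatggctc

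EFNB2, minus strand, chr13:106535663-106535912: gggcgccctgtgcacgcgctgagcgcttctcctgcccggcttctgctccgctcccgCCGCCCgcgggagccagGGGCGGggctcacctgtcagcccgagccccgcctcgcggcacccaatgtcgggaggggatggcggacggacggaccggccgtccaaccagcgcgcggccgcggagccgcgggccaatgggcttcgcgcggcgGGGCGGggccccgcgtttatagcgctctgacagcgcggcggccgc

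The 250 bases of EPHB2 hold 1 GC box and those of EFNB2 hold 3. With the 50 bases after the start included, EPHB2's promoter was 83.0% G or C, and 0.686% of 35116 RefSeq promoters of that length were above it, against a median of 58.7%. EFNB2's was 78.7%. A GC box stood in 45.0% of all promoters. The cores of the TCF/LEF motif, CTTTGA and CTTTGT on either strand, stood in 12.9% and 16.1% of promoters, with 26.2% holding at least 1 of them, and in neither the EPHB2 nor the EFNB2 window. Of the 10 members, EPHA2 held 1 CTTTGA and EFNA1 and EFNA4 each held 1 CTTTGT. These are matches of letters and say nothing about binding.

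EPHB2 was measured at 38.6 and 36.5 CPM in wild type at 24 h and at 2.73 and 2.56 CPM in the libraries labelled knockdown. At 48 h EPHB2 stood at 19.7, 20.9 and 21.5 CPM in wild type and at 6.48, 4.93 and 6.76 CPM in the knockdown. By 96 h the values were 41.7, 34.6 and 38.5 CPM in wild type and 18.6, 21.4 and 20.7 CPM in the knockdown. Every knockdown library lay below every wild-type library of its time. The knockdown mean was 7.04% of wild type at 24 h, 29.3% at 48 h and 52.9% at 96 h, and the edgeR log2 fold changes were -3.83 (SE 0.147), -1.78 (SE 0.108) and -0.92 (SE 0.0988). NORAD followed another order, with no fall at 24 h and its lowest value, 13.6%, at 48 h. Of all 19836 genes tested, 17.6% passed at 24 h, 33.2% at 48 h and 10.5% at 96 h in either direction.

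**Figure D1:**
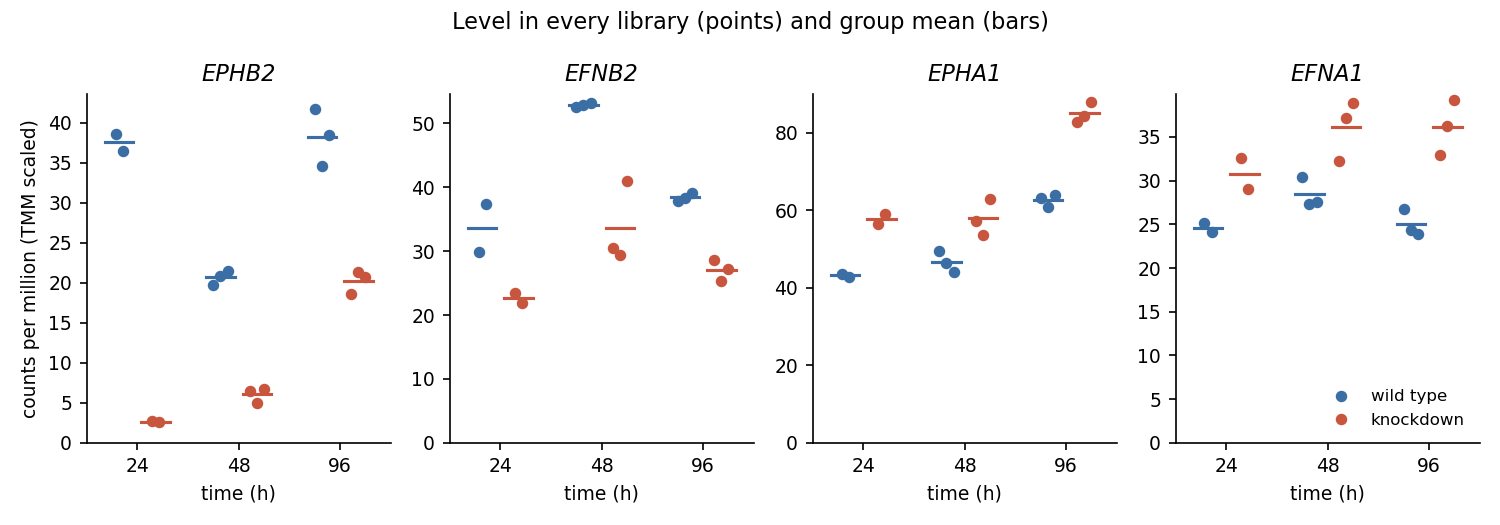
CPM (y axis, from 0) of EPHB2, EFNB2, EPHA1 and EFNA1 at 24, 48 and 96 h, with 1 point per library (wild type blue, knockdown red) and a bar at the group mean. EPHB2 rises in the knockdown from 2.64 CPM at 24 h to 20.2 CPM at 96 h, while wild type dips to 20.7 CPM at 48 h. EFNB2 is lower and EPHA1 and EFNA1 are higher in the knockdown at each time.

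EPHB2 changed over time in wild type as well. Its wild-type level was 37.6 ± 1.48 CPM (SD, n = 2) at 24 h, 20.7 ± 0.941 (SD, n = 3) at 48 h and 38.3 ± 3.54 (SD, n = 3) at 96 h. It fell by 0.86 on the log2 scale from 24 h to 48 h (SE 0.11) and rose by 0.89 from 48 h to 96 h (SE 0.0991). The F test over the 3 wild-type times passed (edgeR Benjamini-Hochberg adjusted p = 2.23e-07). The wild-type libraries also entered the contrasts on which EPHB2 was chosen, so for EPHB2 this test is not independent of the choice. In the knockdown the means were 2.64 ± 0.121 CPM (SD, n = 2), 6.06 ± 0.985 (SD, n = 3) and 20.2 ± 1.46 (SD, n = 3), so the knockdown at 96 h and wild type at 48 h had means within 1 SD of each other. Change over time in wild type was common: 60.6% of all genes passed the same test, and 8 of the 10 members did.

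The transcripts of EPHB2 did not all follow the gene. Of the 5 that held at least 5% of its counts in a group, the 4 that begin at or near the annotated start are named above, and EPHB2-201 begins 64.3 kb further downstream, at 22775178, and codes for a shorter protein (2841 coding bases, against 3168 in EPHB2-204). EPHB2-204, with the long 3′ end, held 53.2% of the gene's counts in wild type and 46.7% in the libraries labelled knockdown at 24 h. Its counts were 539 and 538 in wild type at 24 h and 42 and 51 in the libraries labelled knockdown. EPHB2-203 had 188 and 180 counts in wild type at 24 h and 16 and 0 in the libraries labelled knockdown. EPHB2-201 instead had 9 and 5 counts in wild type and 0 and 34 in the libraries labelled knockdown at 24 h. Its 48 h counts were 10, 18 and 10 in wild type and 50, 29 and 25 in the knockdown, with every knockdown library above every wild-type library. At 96 h it had 32, 21 and 32 counts in wild type and 5, 20 and 4 in the knockdown. In CPM EPHB2-201 overlapped between the groups at 96 h, at 0.668, 0.423 and 0.769 in wild type and 0.122, 0.501 and 0.105 in the knockdown. Its share of EPHB2 counts was 0.691%, 1.73% and 1.60% in wild type at 24, 48 and 96 h, and 17.1%, 14.4% and 1.20% in the knockdown.

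**Figure D2:**
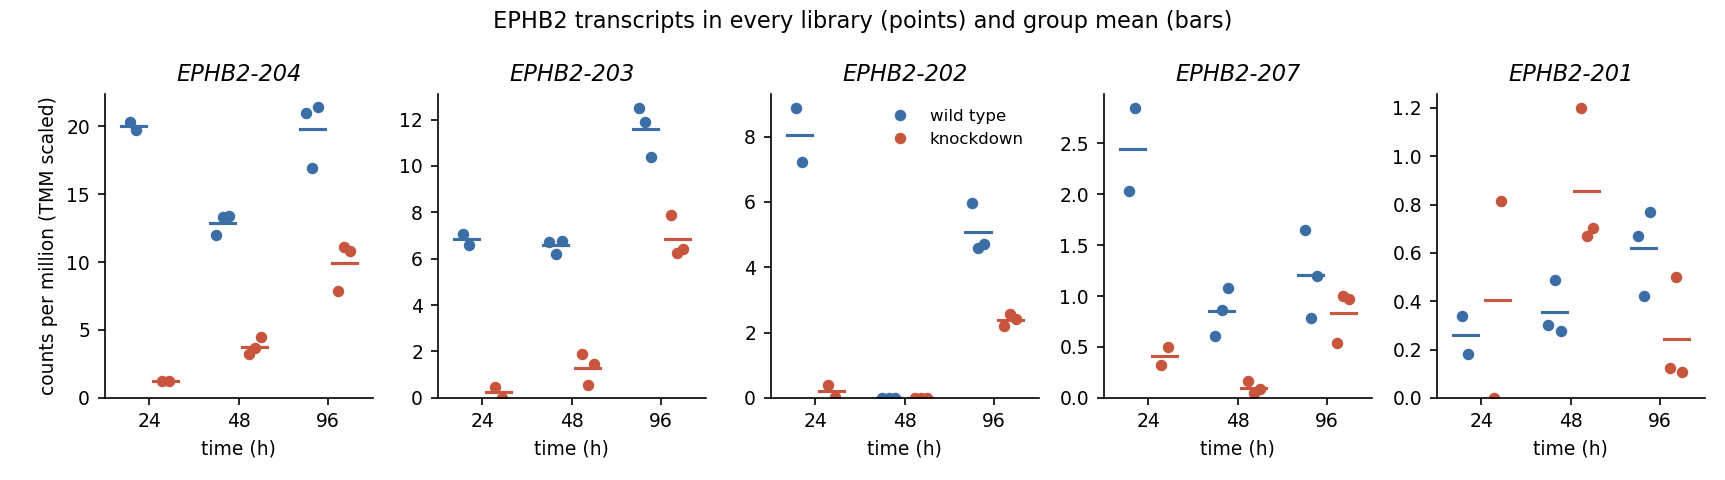
CPM (y axes, from 0, each with its own range) of 5 EPHB2 transcripts at 24, 48 and 96 h, with 1 point per library (wild type blue, knockdown red) and a bar at the group mean. EPHB2-204, EPHB2-203 and EPHB2-207 are lower in the knockdown at 24 and 48 h, EPHB2-202 is at 0 in all libraries at 48 h, and EPHB2-201 is higher in the knockdown at 48 h (0.668 to 1.20 CPM against 0.276 to 0.487 CPM).

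These transcript values are estimates divided between overlapping transcripts by kallisto. EPHB2-202 was listed at 0 in all 6 libraries at 48 h and at 196 to 286 counts in wild type at the other times, so the 48 h value was 0 in wild type and knockdown alike. The shares of EPHB2's transcripts are a description, with no test. Among the other members, 7 had at least 2 transcripts that could be tested for a difference in share with edgeR's diffSpliceDGE (Simes p-values, Benjamini-Hochberg adjusted over 12784 genes). EPHA4, the member with the fewest counts, passed at 24 h (adjusted p = 0.017) and for the mean of the 3 times (adjusted p = 0.0385). The members called were 1 of 7 at 24 h, 0 at 48 h, 0 at 96 h and 1 for the mean, against 1.56%, 4.07%, 1.53% and 3.51% of all genes, with 0 members at 48 h and 0 at 96 h at an unadjusted p under 0.05. On simulated counts most of the calls of this test were of unchanged genes, and limma on log ratios of transcripts called 0 members at any time, so no change of usage is read from it.

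Among the other receptors, EPHA1 was higher in the knockdown at all 3 times. Its CPM was 43.5 and 42.9 in wild type and 56.6 and 59.1 in the libraries labelled knockdown at 24 h. The 48 h values were 49.4, 46.5 and 44.0 in wild type and 57.3, 53.7 and 62.9 in the knockdown. The 96 h values were 63.2, 60.8 and 64.0 in wild type and 82.7, 84.4 and 87.9 in the knockdown. The groups did not overlap at any time. EPHA1, a receptor of epithelial cells, rose by 0.42 (SE 0.0885), 0.31 (SE 0.0716) and 0.44 (SE 0.0706) on the log2 scale, with edgeR Benjamini-Hochberg adjusted p = 0.00204, 0.00199 and 0.000241.

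EPHA2, a receptor often high in carcinoma cells, had 168 and 172 CPM in wild type and 181 and 159 CPM in the libraries labelled knockdown at 24 h, which overlapped. The 48 h libraries, at 111, 119 and 94.8 CPM in wild type and 130, 107 and 162 CPM in the knockdown, overlapped too (log2 fold change 0.29, SE 0.118, edgeR adjusted p = 0.0664). With library totals, upper quartiles or abundance-dependent scaling that difference passed, higher in the knockdown (edgeR adjusted p = 0.00781, 0.00579 and 0.00127). It also passed with protein-coding transcripts only (0.0105) and without replicate 2 of the knockdown (0.00265). Over all 15 alternatives its log2 fold change ran from 0.127 to 0.472, with edgeR or DESeq2 adjusted p up to 0.297. At 96 h the 3 knockdown libraries, at 127, 133 and 129 CPM, lay above the wild-type libraries at 103, 86.5 and 95.4 CPM (log2 fold change 0.45, SE 0.118, edgeR adjusted p = 0.0192). Leaving out 1 of 4 libraries ended this call: wild-type replicate 2 (adjusted p = 0.109), replicate 3 of wild type (0.06), and replicates 2 (0.0735) and 3 (0.06) of the knockdown.

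EPHB3, which works beside EPHB2 in the crypt, was called at 48 h alone, and higher. It had 17.4 and 16.8 CPM in wild type and 22.2 and 18.7 CPM in the libraries labelled knockdown at 24 h (log2 fold change 0.26, SE 0.142, edgeR adjusted p = 0.251). Its 48 h values were 11.8, 11.7 and 12.1 CPM in wild type and 15.4, 14.5 and 19.7 CPM in the knockdown, with no overlap, and it rose by 0.47 (SE 0.117, edgeR adjusted p = 0.00371). At 96 h the groups overlapped, at 12.5, 11.2 and 12.3 CPM in wild type and 10.8, 12.9 and 14.3 CPM in the knockdown (log2 fold change 0.08, SE 0.117, edgeR adjusted p = 0.79). Its 24 h difference passed with library totals as the scale (0.47, edgeR adjusted p = 0.0207) and in a fit of the 24 h libraries alone (0.31, edgeR adjusted p = 0.0355).

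EPHB4, the receptor of ephrin-B2 known from blood vessels, was called lower at 48 h. It had 106, 103 and 95.7 CPM in wild type at 48 h and 81.5, 73.3 and 94.3 CPM in the knockdown, with no overlap (log2 fold change -0.29, SE 0.078, edgeR adjusted p = 0.00694). The call was lost with library totals as the scale (-0.15, adjusted p = 0.111), with abundance-dependent scaling (-0.12, adjusted p = 0.146) and in a fit of these 6 libraries alone (-0.27, adjusted p = 0.0631). At 24 h it had 80.9 and 83.9 CPM in wild type and 84.6 and 82.5 CPM in the libraries labelled knockdown, and at 96 h 106 to 114 CPM against 112 to 115 CPM, which overlapped both times.

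EPHA4, a receptor that binds ligands of both classes, had the fewest counts of the 10 genes in every group, at 41 to 94 per library. Its CPM lay between 0.856 and 2.58 in wild type and between 1.62 and 2.54 in the knockdown over all times, the groups overlapped at each time, and it did not pass at any time (edgeR adjusted p from 0.522 to 0.902). With so few counts the SE was 0.237 to 0.298, so a difference of the size seen for EPHA1 was not detectable at this depth.

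Of the ligands, EFNB2 (ephrin-B2), which binds EPHB2 and EPHB4 and also marks arteries, was lower in the knockdown at all 3 times. It had 29.9 and 37.4 CPM in wild type and 23.5 and 21.9 CPM in the libraries labelled knockdown at 24 h. The 48 h libraries had 52.6, 52.8 and 53.1 CPM in wild type and 30.5, 29.4 and 41.0 CPM in the knockdown. The 96 h libraries had 37.9, 38.3 and 39.1 CPM in wild type and 28.6, 25.3 and 27.2 CPM in the knockdown. The groups did not overlap at any time. EFNB2 fell by 0.57 (SE 0.13), 0.65 (SE 0.103) and 0.51 (SE 0.104) on the log2 scale, with edgeR Benjamini-Hochberg adjusted p = 0.00393, 6.02e-05 and 0.00225. At 24 h, with 2 libraries in each group, the call was lost without wild-type replicate 2 (-0.39, adjusted p = 0.127), without knockdown replicate 2 (-0.47, adjusted p = 0.105) and with library totals as the scale (-0.36, adjusted p = 0.0511).

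EFNA1 (ephrin-A1), a ligand of EPHA2 and EPHA1, was higher in the knockdown. It had 25.1 and 24.1 CPM in wild type and 32.6 and 29 CPM in the libraries labelled knockdown at 24 h. At 48 h EFNA1 had 30.4, 27.3 and 27.6 CPM in wild type and 32.2, 37.2 and 38.9 CPM in the knockdown, and at 96 h 26.7, 24.4 and 23.9 CPM in wild type and 32.9, 36.3 and 39.2 CPM in the knockdown. The groups did not overlap at any time. EFNA1 rose by 0.32 (SE 0.11), 0.34 (SE 0.0883) and 0.53 (SE 0.0881) on the log2 scale, with edgeR Benjamini-Hochberg adjusted p = 0.0472, 0.00494 and 0.000332. The 24 h call was lost without wild-type replicate 1 (adjusted p = 0.135), wild-type replicate 2 (0.248) or knockdown replicate 1 (0.334).

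EFNB1 (ephrin-B1), the other B ligand, had 24.0 to 32.9 CPM in wild type and 24.2 to 37.6 CPM in the knockdown over all times. Its log2 fold changes were 0.04, -0.01 and 0.01 (SE 0.113 to 0.141), none past the threshold (edgeR adjusted p from 0.9 to 0.99). Its SE were close to those of EFNB2 (0.103 to 0.13), whose falls did pass. EFNA4 (ephrin-A4) had log2 fold changes of -0.06, -0.14 and -0.13 (edgeR adjusted p from 0.224 to 0.797). Its CPM lay at 12.6 to 21.0 in wild type and 11.9 to 19.4 in the knockdown, and 12.3% of its 31-base words also occur in another gene, mostly AL691442.1, against 0.0% to 1.36% for the other 9 members, so its counts are less certain.

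Counted over the 9 members other than EPHB2, 2 were called higher and 1 lower at 24 h, 3 higher and 2 lower at 48 h, and 3 higher and 1 lower at 96 h. The 9 were chosen with earlier results of these data known, so these counts may not be independent of the choice. Of all genes, 5.14% were called higher and 12.4% lower at 24 h. The 48 h shares were 14.8% higher and 18.5% lower, and the 96 h shares 5.35% higher and 5.15% lower. The median log2 fold change of the 9 members was 0.02, -0.01 and 0.08, and that of all genes was -0.02, 0.06 and -0.01. The 24 h count of 3 became 1 without wild-type replicate 2, so with 2 libraries per group it rests on single libraries. The 48 h count was 5 to 6 whichever library was left out, and 5 without replicate 3 of the knockdown. For the difference of the knockdown effect between the 3 times, edgeR called 0 of the 9 members (1 at an unadjusted p under 0.05), against 9.44% of all genes. DESeq2 called 1, EPHB4 (adjusted p = 0.0221), and edgeR without replicate 3 of the knockdown at 48 h called 2, EPHB4 (adjusted p = 0.00209) and EPHA2 (adjusted p = 0.0394).

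**Figure D3:**
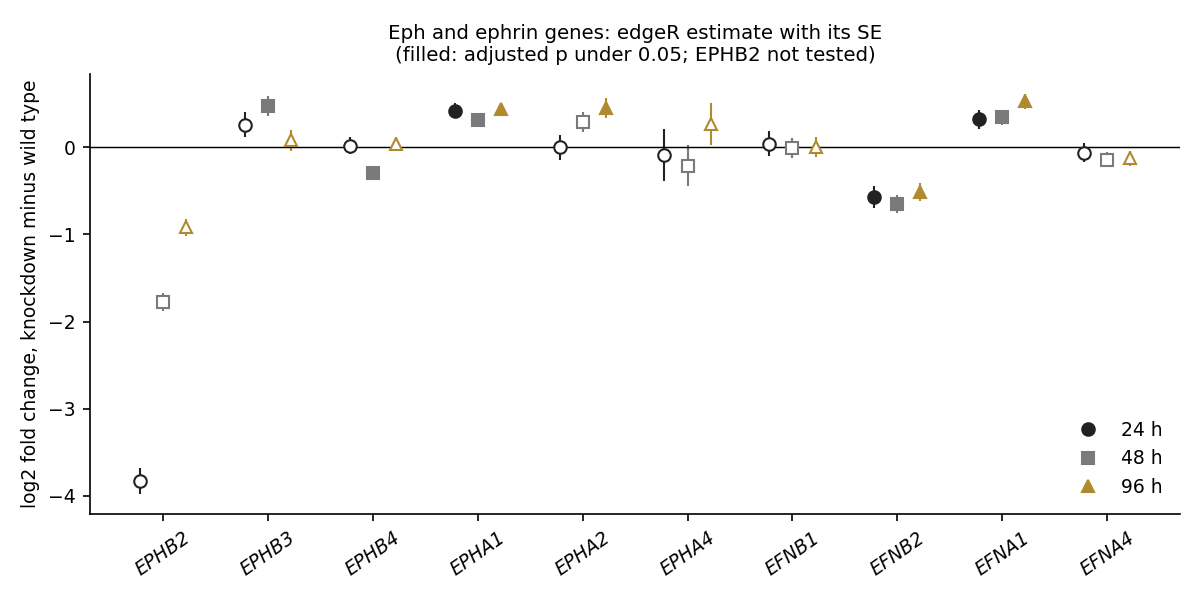
edgeR log2 fold change, knockdown minus wild type (y axis), of the 10 genes at 24 h (circles), 48 h (squares) and 96 h (triangles), with bars of 1 SE and filled symbols where the adjusted p is under 0.05. EPHB2, which was not tested, runs from -3.83 to -0.92, while the other 9 lie between -0.65 and 0.53.

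In wild type alone, the F test over 24, 48 and 96 h passed for 8 of 10 members, EPHB2 among them with the limit given above. It did not pass for EFNB1 (edgeR adjusted p = 0.157) or EFNA1 (edgeR adjusted p = 0.104). In a fit of the wild-type libraries alone both passed (0.025 and 0.0444), and EFNA1 also passed with protein-coding transcripts only (0.00149). EPHA2 fell by 0.84 on the log2 scale from 24 h to 96 h (SE 0.131, edgeR adjusted p = 6.84e-05), and EPHB3 fell by 0.51 (SE 0.131, edgeR adjusted p = 0.00405). EPHA1 rose by 0.54 (SE 0.0816, edgeR adjusted p = 2.41e-05) and EPHB4 rose by 0.43 (SE 0.0884, edgeR adjusted p = 0.000673). EFNB2 peaked at 48 h: it rose by 0.65 from 24 h (SE 0.118) and fell by 0.46 to 96 h (SE 0.102). EPHB2 was the reverse, lowest at 48 h. EFNA4 rose by 0.26 and then fell by 0.60. EPHA4's F test (edgeR adjusted p = 0.0342) was lost under several settings, among them without wild-type replicate 1 at 96 h, its lowest library (adjusted p = 0.207).

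Levels of different genes were compared per length, as counts divided by transcript length and then scaled to the same sum in each library, without TMM. In wild type at 24 h the order was EPHA2 (60.3 ± 3.73, SD, n = 2), EPHB4 (35.2 ± 2.72), EPHA1 (23.6 ± 0.736), EFNA1 (23.2 ± 0.91), EFNA4 (17.3 ± 0.873), EFNB1 (11.2 ± 0.49), EPHB2 (10.1 ± 0.0258), EFNB2 (9.86 ± 1.83), EPHB3 (6.19 ± 0.716) and EPHA4 (1.64 ± 0.336). The ranges of EPHA1 and EFNA1 and those of EPHB2 and EFNB2 overlapped. At 48 h EPHB2 was at 3.62 ± 0.256 (SD, n = 3) in wild type, with a range that overlapped that of EPHB3 (3.40 ± 0.0543), and at 96 h at 8.48 ± 0.995, beside EFNB1 (8.77 ± 0.836). In the knockdown EPHB2 was the lowest of the 10 at 24 h (1.23 ± 0.371) and at 48 h (1.12 ± 0.388), both overlapping EPHA4, and stood in place 8 again at 96 h (4.49 ± 0.12), between EFNB2 (6.64 ± 0.53) and EPHB3 (3.62 ± 0.172). With the length of the longest coding transcript in place of each transcript's own, EPHB2 at 96 h in wild type was 4.84 in place of 8.48. On that scale EPHB2 in the knockdown was still below EPHA4 at 24 h (0.510 against 0.683), but above it at 48 h (0.732 against 0.443) and below EPHB3 at 96 h (2.45 against 3.92), so its place in the order depends on the length used.

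**Figure D4:**
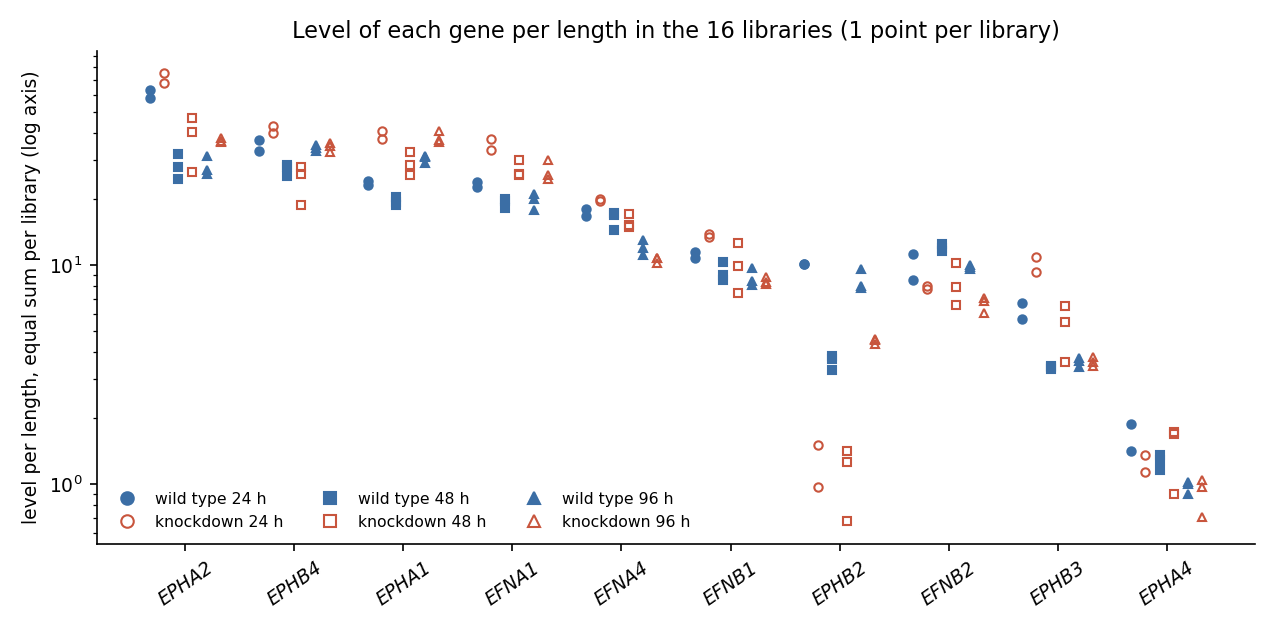
Level per length, scaled to the same sum in each library (y axis, log scale) of the 10 genes, ordered by their wild-type mean at 24 h, with 1 point per library (filled blue, wild type; open red, knockdown; circles 24 h, squares 48 h, triangles 96 h). EPHB2 spans the widest range, from about the level of EPHA4 (1.64 in wild type at 24 h) in the knockdown at 24 and 48 h to that of EFNB1 in wild type.

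Of the 8 other Eph and ephrin genes tested, 1 was called at 24 h, 3 at 48 h and 0 at 96 h (0 at an unadjusted p under 0.05 in edgeR), all of them higher. Over all genes, 17.6%, 33.2% and 10.5% were called in either direction, and 5.14%, 14.8% and 5.35% were called higher. EPHA10, a receptor that lacks kinase activity, had 9.07 and 9.76 CPM in wild type and 13.1 and 15.0 CPM in the libraries labelled knockdown at 24 h (log2 fold change 0.58, SE 0.15, edgeR adjusted p = 0.00977), a call that ended when wild-type replicate 1 (0.0931) or knockdown replicate 2 (0.0948) was left out. EPHB6, which is also kinase-dead, had 6.83, 3.76 and 6.59 CPM in wild type and 13.6, 13.2 and 10.8 CPM in the knockdown at 48 h (1.13, SE 0.211, edgeR adjusted p = 0.000671). EPHA8 passed at 48 h (2.14, SE 0.396, edgeR adjusted p = 0.000301) on few counts, 6, 2 and 5 in wild type and 23, 19 and 24 in the knockdown. EPHB1 passed at 48 h (0.94, SE 0.249, edgeR adjusted p = 0.00643) on 8, 15 and 11 counts against 24, 28 and 22, and no longer with abundance-dependent scaling (0.59, adjusted p = 0.131), in a fit of the 48 h libraries alone (0.126) or with protein-coding transcripts only (0.184). At 24 h EPHB1 passed as lower with abundance-dependent scaling (-0.69, edgeR adjusted p = 0.0331) and in a fit of that time alone (-0.48, 0.0137). EFNA2, EFNA3, EFNA5 and EFNB3 did not pass at any time, though EFNA3 passed at 48 h without replicate 3 of the knockdown (-0.25, adjusted p = 0.0215) and EFNA5 at 96 h in a fit of that time alone (0.39, adjusted p = 0.0141).

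EPHA8 is also one of the 8 tested protein-coding genes within 500 kb of EPHB2, at 107.2 kb. Of these 8, KDM1A and HNRNPR were called lower at 24 h and 48 h and EPHA8 was called higher at 48 h. Over all genes, 12.4% were called lower and 5.14% higher at 24 h, and 18.5% lower and 14.8% higher at 48 h. KDM1A, a histone demethylase gene 97.9 kb away, had 172 and 172 CPM in wild type and 133 and 132 CPM in the libraries labelled knockdown at 24 h (-0.38, SE 0.103, edgeR adjusted p = 0.0132), and also fell at 48 h (-0.46, SE 0.0838, edgeR adjusted p = 0.000275). HNRNPR, which encodes an RNA-binding protein, 382.3 kb away, fell at 24 h (-0.40, SE 0.103, edgeR adjusted p = 0.00856) and at 48 h (-0.44, SE 0.0838, edgeR adjusted p = 0.000409). The 24 h calls were lost with library totals as the scale (KDM1A -0.17, adjusted p = 0.243; HNRNPR -0.20, adjusted p = 0.21) and with abundance-dependent scaling (0.199 and 0.156). Leaving out any 1 of the 4 libraries ended that of KDM1A (0.0724 to 0.179), and leaving out wild-type replicate 2 or either knockdown library that of HNRNPR (0.0737 to 0.137). Neither passed at 96 h, though HNRNPR did under 5 alternatives, among them DESeq2 (-0.25, adjusted p = 0.0361). ZBTB40, the tested gene farthest upstream at 179.7 kb, had log2 fold changes of -0.02, 0.01 and -0.04, and LUZP1, HTR1D, ZNF436 and TCEA3 did not pass at any time. LUZP1 passed at 24 h in a fit of that time alone (0.58, adjusted p = 0.000243), and ZNF436 (-0.30, 0.0286) and TCEA3 (0.61, 0.0301) at 48 h without replicate 3 of the knockdown. The 5 other protein-coding neighbours, C1QA, C1QB, C1QC, LACTBL1 and TEX46, were too low to test.

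The genes whose log2 CPM was most like that of EPHB2 were ranked by Pearson correlation over 16 libraries among 11052 genes with a mean of at least 5 CPM, as a description. The libraries share times and groups, so genes lower in the knockdown at 24 h rank high by construction. Over all libraries the first 5 were MYH10, a non-muscle myosin (0.968), FKBP10, a prolyl isomerase of the endoplasmic reticulum (0.967), KCNK1, a potassium channel (0.963), PLEKHH2 (0.950) and THOC5, a part of the mRNA export complex (0.928). With the mean of each time removed they were KCNK1 (0.988), MYH10 (0.984), the homeobox gene TLX3 (0.982), the neuropeptide precursor VGF (0.981) and CEP83, a centriole appendage gene (0.974). KCNK1 had the same fading order as EPHB2, at 6.75%, 22.5% and 63.5% of wild type at 24, 48 and 96 h, and CEP83 was at 4.99%, 23.1% and 32.1%. FKBP10 was at 13.5%, 27.7% and 81.6%, and THOC5 only at 76.5%, 82.9% and 93.7%. Within the family, with time means removed, the correlation with EPHB2 was 0.816 for EFNB2, -0.807 for EPHA1, -0.767 for EPHA10, -0.691 for EFNA1, -0.596 for EPHB3 and 0.590 for EFNA3, and the 7 others lay between -0.489 and 0.485. Over all libraries the same 6 genes had 0.498, -0.048, -0.026, -0.546, -0.634 and -0.297, so EPHA1 and EPHA10 were near 0 and EFNA3 had the other sign.

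**Figure D5:**
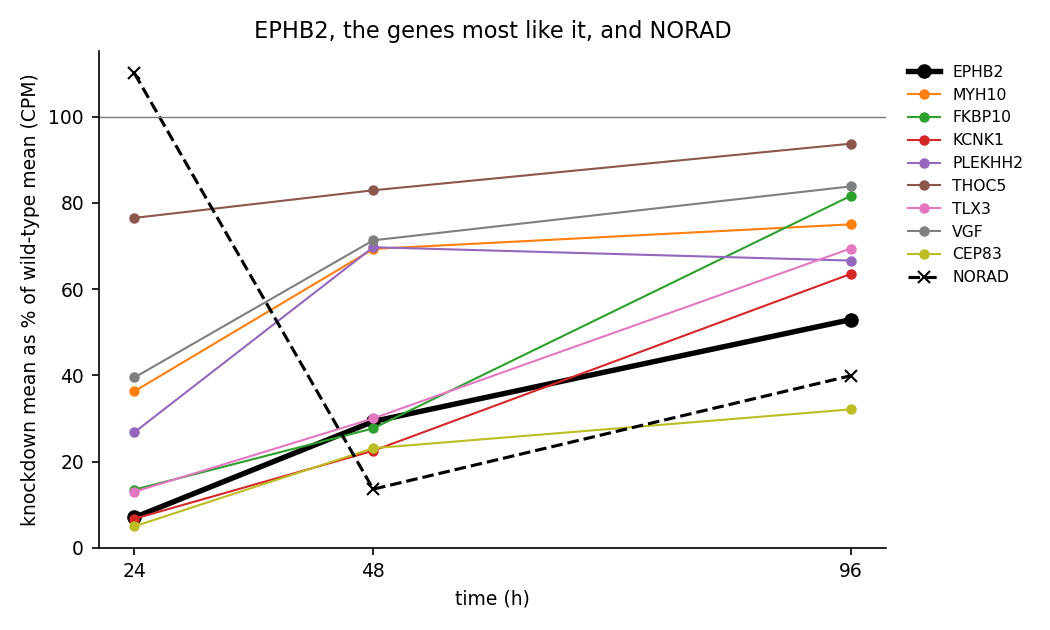
Knockdown mean as a percent of the wild-type mean in CPM (y axis, from 0) at 24, 48 and 96 h (x axis) for EPHB2 (thick black), the 8 genes most like it (colours) and NORAD (dashed). EPHB2 runs from 7.04% to 52.9%, KCNK1 from 6.75% to 63.5%, and NORAD is at 110%, 13.6% and 39.9%.

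The signalling partners of the family were taken from lists written from general knowledge, with earlier results of these data known. Of 45 tested genes of forward signalling (adaptors, exchange factors and kinases below the receptors), 2 were called higher and 7 lower at 24 h, 10 and 12 at 48 h, and 4 were called at 96 h, all higher. Of all genes, 5.14%, 14.8% and 5.35% were called higher and 12.4%, 18.5% and 5.15% lower at the 3 times. The list's median log2 fold changes were -0.09, -0.09 and 0.03, against -0.02, 0.06 and -0.01 over all genes. INPPL1, the SHIP2 phosphatase that binds EPHA2, was at 143 and 144 CPM in wild type and 186 and 192 CPM in the libraries labelled knockdown at 24 h, and rose by 0.40, 0.49 and 0.31 at the 3 times (SE 0.0672 to 0.0828, edgeR adjusted p = 0.00196, 1.51e-05 and 0.00401). AFDN (afadin, a junction protein that binds Eph receptors) rose at 24 h (0.30) and 48 h (0.35), and NGEF (ephexin, an exchange factor bound by EPHA4) rose at 48 h (0.57) and 96 h (0.42). The adaptor CRKL fell at 48 h (-0.40, edgeR adjusted p = 0.00184). Its 24 h call (-0.33, edgeR adjusted p = 0.0406) was lost under each of 4 other scalings, with library totals at -0.12 (adjusted p = 0.453) and upper quartiles at -0.21 (0.125), and without 3 of the 4 libraries in turn (wild-type replicates 1 and 2 and knockdown replicate 2, 0.127 to 0.622). AFDN's 24 h call was lost without any 1 of the 4 libraries (0.056 to 0.192), and NGEF's at 96 h when replicate 2 or 3 of wild type, or 3 of the knockdown, was left out (0.0503 to 0.0564).

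Of 19 tested genes of reverse signalling, below the ephrins, 3 were called higher at 24 h, 5 higher and 1 lower at 48 h, and 5 higher and 1 lower at 96 h, with median log2 fold changes of 0.04, 0.11 and 0.21. The shares of all genes were those given for forward signalling, 5.14%, 14.8% and 5.35% higher and 12.4%, 18.5% and 5.15% lower, with medians of -0.02, 0.06 and -0.01. PLXND1, a semaphorin receptor, rose by 0.29, 0.57 and 0.33 (edgeR adjusted p = 0.0343, 1.07e-05 and 0.00636), and CNKSR1, a scaffold bound by ephrin-B1, rose by 0.30, 0.52 and 0.25 (edgeR adjusted p = 0.0294, 2.79e-05 and 0.0385). FLOT1, a lipid-raft protein, rose at 24 h (0.31) and 48 h (0.22), and STAT3 rose at 48 h (0.27). Leaving out any 1 of the 4 libraries ended the 24 h calls of PLXND1 (0.0955 to 0.203) and CNKSR1 (0.0592 to 0.254), and wild-type replicate 2 or either knockdown library that of FLOT1 (0.0686 to 0.219). At 96 h the call of CNKSR1 was lost without any 1 of 5 libraries, all but wild-type replicate 1 (0.0508 to 0.168), and that of PLXND1 without wild-type replicate 2 (0.0528). FLOT1's 48 h call rested on replicate 2 of wild type (0.0974 without it) and of the knockdown (0.0664), and STAT3's on replicates 2 and 3 of wild type and 3 of the knockdown (0.0513 to 0.0896), while STAT3 passed at 24 h and 96 h with library totals (0.00415 and 0.0322). Of 14 tested genes of receptor and ligand cleavage, 2 were called at 24 h and 2 at 96 h, all higher, and 3 higher and 2 lower at 48 h, with medians of 0.18, 0.06 and 0.15. The protease ADAM9 rose at 24 h (0.76, SE 0.171, edgeR adjusted p = 0.00587) and 96 h (0.75, SE 0.138, edgeR adjusted p = 0.00237), and APH1B, a gamma-secretase subunit, rose at 24 h (0.71, SE 0.154, edgeR adjusted p = 0.00254) and 48 h (0.46, SE 0.135, edgeR adjusted p = 0.0121). ADAM15 fell at 48 h (-0.46, SE 0.0722, edgeR adjusted p = 5.62e-05), and MMP14, which cleaves EPHA2, did not pass (0.22, 0.26 and 0.25). With library totals MMP14 passed at 24 h (0.43, adjusted p = 0.0328) and 48 h (0.41, adjusted p = 0.0108), and with upper quartiles at 48 h (0.0098). ADAM9's 24 h call was lost without replicate 1 of wild type (0.0696) or of the knockdown (0.056), and it passed at 48 h with totals (0.41, adjusted p = 0.0224). APH1B's 48 h call was lost without wild-type replicate 1 (0.062).

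Of 21 tested genes of the crypt base and of beta-catenin targets, a list that also holds EPHB3, EFNB1 and EFNB2, 4 were called lower and 2 higher at 24 h. The counts were 11 lower and 3 higher at 48 h and 3 lower and 1 higher at 96 h. Of all genes, 12.4%, 18.5% and 5.15% were called lower and 5.14%, 14.8% and 5.35% higher at the 3 times. The list's median log2 fold change was 0.04, -0.30 and -0.01, against -0.02, 0.06 and -0.01 over all genes. MYC was at 294 and 312 CPM in wild type and 144 and 136 CPM in the libraries labelled knockdown at 24 h, at 30.0% of wild type at 48 h and at 70.3% at 96 h. CD44, a surface glycoprotein, fell at 48 h (-0.91, SE 0.0804, edgeR adjusted p = 6.45e-08) and was at 97.6% of wild type at 96 h. RNF43, a ubiquitin ligase that lowers Wnt receptors, was called lower at all 3 times (-0.37, -0.80 and -0.24, edgeR adjusted p = 0.00777, 1.45e-07 and 0.0401). Its 24 h call was lost with library totals (-0.16, adjusted p = 0.326), upper quartiles (-0.25, 0.0655) and abundance-dependent scaling (-0.23, 0.107), and without wild-type replicate 2 or either knockdown library (0.051 to 0.14). Its 96 h call was lost with totals (-0.24, 0.0657) and without any 1 of 5 libraries, all but wild-type replicate 2 (0.0517 to 0.189). Relative to wild type, all 3 genes and the list's median were lowest at 48 h, as was NORAD, while EPHB2 was lowest at 24 h. In the same libraries 6 of 11 tested colon epithelial markers were called lower at 48 h and 2 at 24 h, against 18.5% and 12.4% of all genes; the part of that change in the crypt list was not tested.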

How the data were processed

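Strand-specific libraries were made from polyadenylated RNA, per the labels' protocols, and 16 were analysed. The authors deposited estimated counts (expected counts) per transcript, made with kallisto per the submitters' processing notes, as whole numbers. Those notes also list DESeq2 and hg19, without versions; for the index and settings, nothing is given in the sources used here. kallisto splits reads shared by overlapping transcripts or similar genes by a model, so transcript values are less certain than gene sums. Of 166096 transcripts, 156584 were matched by identifier to GENCODE 29 (GRCh38), whose coordinates are used, and 9512, with 2.75% to 3.40% of counts, were left out. Matched counts were summed to 31496 genes and rounded.

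Groups and replicate numbers come from the titles. edgeR 4.0.16 in R 4.3.3 was run with filterByExpr (19836 genes), TMM scaling, a mean for each of the 6 groups in 1 fit of 16 libraries (10 residual degrees of freedom), glmQLFit (robust) and glmQLFTest, with Benjamini-Hochberg adjustment over all genes and a threshold of 0.05. Library totals were 28391784 to 51853876, and how far counting or the spread between libraries limits precision was not compared. Transcript usage of the members other than EPHB2 was tested with diffSpliceDGE, and with limma 3.58.1 as an alternative. Both tests, and the gene test, were also run on counts simulated with the means and spread of these libraries. Other scalings, no filter, DESeq2 1.42.0, other samples in the fit, a replicate block and leaving out each library were tried. Log2 CPM for likeness used a prior count of 2.

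The members and gene lists were chosen with earlier results of these data known. Genes named are all 10 members, the other Eph and ephrin genes and the neighbours within 500 kb that passed the filter, up to 4 genes per list with the lowest p in the mean of the 3 knockdown differences, the 5 genes most like EPHB2 by each of the 2 measures, and NORAD. Protein sequences were not used here.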

Additional observations from a re-analysis of the deposited data

Results flagged for a closer look

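EPHB1, MYC, RNF43 and CD44 had a knockdown effect that differed between 24, 48 and 96 h in edgeR's F test of the 3 differences (Benjamini-Hochberg adjusted over all genes). EPHB1 had a log2 fold change of -0.53 at 24 h (SE 0.216, adjusted p = 0.099, not past the threshold) and was higher at 48 h (0.94, SE 0.249, adjusted p = 0.00643), with an adjusted p of 0.0125 for the difference. Its 24 h fall passed with abundance-dependent scaling (edgeR adjusted p = 0.0331) and in a fit of that time alone (0.0137). EPHB1 had 181 to 235 counts at 24 h and 8 to 28 counts per library later, so the later values rest on few counts. Its wild-type mean was 7.96 CPM at 24 h and 0.317 CPM at 48 h. EPHB1's call for the difference was lost with the replicate block (edgeR adjusted p = 0.0596) and with protein-coding transcripts only (0.223). MYC (-1.11, -1.74 and -0.51), RNF43 (-0.37, -0.80 and -0.24) and CD44 (-0.26, -0.91 and -0.04) were lowest against wild type at 48 h, with adjusted p of 0.000528, 0.00376 and 0.000152 for the difference. The genes most like EPHB2 were left out, since their choice used these contrasts.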

How the results depend on the processing

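No member and no other named gene that was called changed direction under any alternative run. Of 2993 single values recomputed, 2748 kept their side of the threshold or stayed within the spread, 128 calls were lost, 76 were gained and 41 uncalled or untested values moved. Leaving out 1 library gave 1 to 2 called members at 24 h (3 with all, 1 without wild-type replicate 2), 5 to 6 at 48 h (5 with all), 3 to 4 at 96 h (4 with all), 7 to 8 for wild type across times (8 with all) and 0 to 2 for the difference between times (0 with all). DESeq2 called 1 member for that difference. For transcript usage, limma on log ratios and the replicate block each called 0 members, and leaving out 1 library gave 0 to 1 for 24 h and for the mean of the times (1 with all, EPHB2 not counted). The 24 h call of EPHA4 was lost without either wild-type library of that time. EPHB2's log2 fold change ran from -3.87 to -3.62 at 24 h, from -1.86 to -1.64 at 48 h and from -0.99 to -0.85 at 96 h. EPHA1 at each time, EFNB2 and EFNA1 at 48 h and 96 h and EPHB3 at 48 h passed in every alternative (highest adjusted p = 0.0318).

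Scaling moved the balance of all calls. With TMM 29.2% of genes called at 24 h and 44.4% at 48 h were higher. Library totals gave 75.4% and 68.9%, the upper quartile 53.7% and 64.3%, and abundance-dependent scaling 49.3% at 24 h. Totals moved the median of all genes to 0.19 at 24 h and 0.20 at 48 h, so shifts of that size are not told from scale. Genes called for the difference between times went from 1872 to 5035 without replicate 3 of the knockdown at 48 h, to 2846 with DESeq2 and to 900 with the replicate block. A fit of 1 time's libraries alone gave 4072 called genes at 48 h (6591 with all) and 3450 at 96 h (2083 with all).

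Same-numbered wild-type and knockdown libraries did not deviate together (correlations over 11053 genes from -0.398 to 0.091), so the numbers were not taken as pairs. With the replicate block, EFNA1 at 24 h (adjusted p = 0.113) and EPHA2 at 96 h (adjusted p = 0.0926) no longer passed.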
